A study of Mus musculus with 21 samples.

Results

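Late intermediates of chemical reprogramming were set against XEN cells kept in the reprogramming medium. The comparison used 6 of the 21 RNA sequencing libraries of the series, chosen by their labels alone. One arm held 3 libraries of intermediate cells, taken on day 20, day 26 and day 28 (Day20, Day26 and Day28) of the chemical conversion of mouse embryonic fibroblasts from the strain C57BL/6J-Tg(GOFGFP)11Imeg/RbrcxICR. The other arm held 3 libraries of XEN cells, the stem cells of the embryo's extraembryonic endoderm, all from wild-type ICR. CeXEN replicates 1 and 2 were derived from E3.5 embryos in the stage 1 reprogramming medium with the small molecules abbreviated VC6TFAE. eXEN-1 was an established line, received as a gift, that was kept in that medium with VC6TF, a mix written with fewer letters. All 3 XEN libraries had 20 ng/ml bFGF, and the labels do not give the medium of the late intermediates. eXEN-2, the same line in conventional XEN medium, was left out of the fit.

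Several features limit these arms as models. The late arm is 1 library from each of 3 days, and the XEN arm is 2 libraries of newly derived cells and 1 library of an old line. Strain, origin (converted fibroblast or embryo) and any difference in medium cannot be told apart. Nothing in the labels says that libraries came from separate cultures, so p-values measure only the spread between these libraries. In bulk RNA, fewer cells of a type and less RNA per cell cannot be told apart.

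XEN cells represent the primitive endoderm, the layer of the blastocyst that forms the yolk sac. Gata4, Gata6 and Sox17 are its core transcription factors, and its descendants split into parietal endoderm, which lays down a thick basement membrane, and visceral endoderm, which is a polarized, absorptive epithelium. In chemical reprogramming, fibroblasts pass through a state that expresses these endoderm factors before a pluripotent state is reached, and the comparison asks how closely that state, late in its course, matches true XEN cells. Epithelial cells are held together by E-cadherin and sealed by claudins, while embryonic stem cells are kept by a network that includes Pou5f1, Sox2, Nanog and Esrrb.

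The authors' values are FPKM, fragments scaled to transcript length and to the number of mapped fragments, as deposited. Each level below is in FPKM, with the late intermediates in the order Day20, Day26, Day28 and the XEN cells in the order CeXEN replicate 1, CeXEN replicate 2, eXEN-1. Differences are on the log2(FPKM + 1) scale, late intermediates minus XEN cells, with their standard error (SE) and n = 3 in each arm, and this scale understates changes of low genes. Genes with at least 1 FPKM in 2 or more of the 6 libraries were tested. A gene was called, and is said to be higher, lower, risen or fallen, where limma's adjusted p (Benjamini-Hochberg over 13543 genes) was under 0.05 and the log2 difference was at least 1.

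Between 12943 and 13302 genes reached 1 FPKM in late intermediates, against 11347 to 12376 in XEN cells. Relative depth, estimated from genes with a single fragment and set to 1 for eXEN-1, was 0.774 to 0.885 in late intermediates and 0.651 to 1.20 in XEN cells. Across genes, log2 values correlated at 0.949 to 0.968 among the late libraries. Late libraries correlated with CeXEN libraries at 0.877 to 0.904 and with eXEN-1 at 0.841 to 0.853, while the CeXEN libraries correlated with eXEN-1 at 0.923 and 0.896. The Day20 and Day26 files carry a low-data status that the Day28 file and the XEN files do not, and genes of selenoproteins differed with it. Txnrd1, a selenoprotein gene picked after its values were seen, was listed at 18930, 18725 and 45.3 FPKM in late intermediates, against 57.2, 55.2 and 76.7 FPKM in XEN cells. With the file status as a covariate in a fit to all 21 libraries, 73 of the 134 calls named or listed here were lost. Only the day 16 group (Day16) holds both kinds of file. That fit therefore takes the effect of file status from Day16 replicate 1 against Day16 replicate 2 alone. Any other difference between these libraries cannot be told apart from file status. Vim, for example, had 195 FPKM in Day16 replicate 1 and 1048 FPKM in Day16 replicate 2. Whether file status was behind a call lost in that fit was not tested. The log2 differences of that fit are given beside many of the named genes below. For some genes that of Day28 alone is given, whose file is of the same kind as the XEN files.

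The summed level of 7 primitive endoderm markers (Gata4, Gata6, Sox17, Sox7, Foxa2, Pdgfra and Dab2) was 1363, 1271 and 1489 FPKM in late intermediates, against 1660, 1393 and 1124 FPKM in XEN cells. The arms overlapped, and the same sum was 41.7 and 88.8 FPKM in fibroblasts (MEF) and 8.001 and 11.6 FPKM in embryonic stem cells. The sum was thus far higher in all 6 libraries than in fibroblasts and embryonic stem cells. Afp, a visceral endoderm gene, was below the filter in all of them.

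Of 13543 genes tested, 1390 were called (10.3%), 1143 of them higher in late intermediates (8.44%) and 247 lower (1.82%). At an unadjusted p under 0.05 there were 4242 genes. All late libraries lay above all XEN libraries for 3588 genes (26.5%) and below them for 1703 genes (12.6%). In 498 of the 1143 higher genes, all 3 XEN libraries were under 1 FPKM, whereas 21 of the 247 lower genes were under 1 FPKM in all late libraries. Quantile normalization moved the median log2 difference of all genes to -0.06, against 0.14 as deposited, and then 662 genes were higher and 454 lower. The share of calls in the higher direction was thus 59.3% after quantile normalization and 82.2% without it. Without Day20, Day26 or CeXEN replicate 1 the higher calls numbered 425, 423 and 377 and the lower calls 71, 58 and 128, and without Day28 the lower calls numbered 108. For Day28 alone against the XEN libraries, 168 genes were higher (1.24%) and 6 lower (0.0443%). In all, 324 calls (279 higher and 45 lower) held in each of the 6 fits that left out a library.

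**Figure D1:**
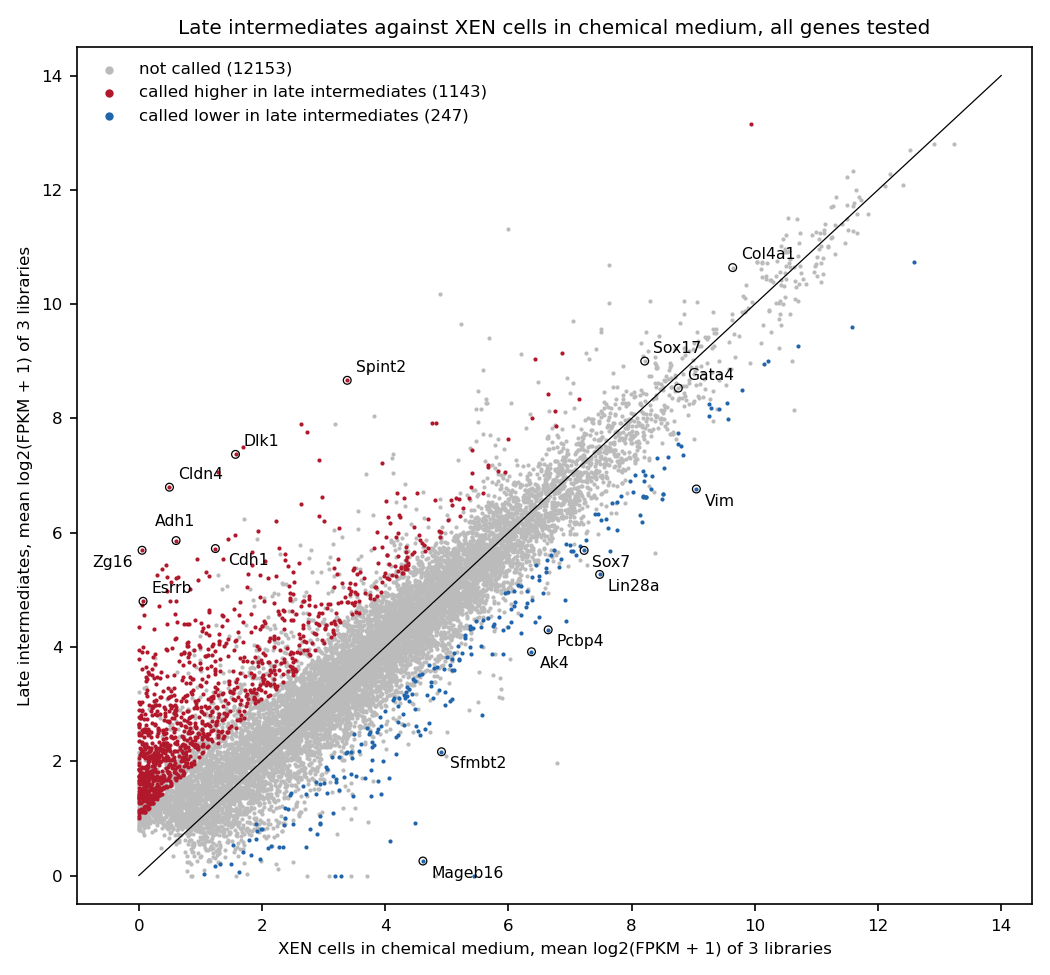
Each point is 1 of the genes tested, by its mean log2(FPKM + 1) over the 3 XEN libraries (x axis) and over the 3 late libraries (y axis), with called genes in red (1143 higher in late intermediates) and blue (247 lower) and the line of equal level in black. Cldn4, Zg16 and Adh1 sit far above the line near 0 on the x axis, Mageb16 lies far below it, and Gata4 lies close to it.

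Among the core endoderm factors, the arms overlapped for Gata4 and Sox17, while Gata6 was below every XEN library in each late library and was not called. Of 20 listed regulators and markers of XEN cells, 19 were tested, 2 were higher and 2 lower, and the median log2 difference was 0.79, against 0.14 for all genes. No member was higher without Day20 or CeXEN replicate 1, 1 was higher without Day26 or Day28, and 5 were higher without CeXEN replicate 2. A single member was lower without Day20, Day26 or CeXEN replicate 1. The median was 0.41 without eXEN-1. Gata4, a zinc-finger factor of primitive endoderm, had 427, 332 and 353 FPKM in late intermediates, against 441, 431 and 424 FPKM in XEN cells (log2 difference -0.23, SE 0.17, adjusted p = 0.403). Its arms overlapped. Sox17, which acts beside it, had 513, 477 and 548 FPKM in late intermediates and 498, 351 and 148 FPKM in XEN cells (log2 difference 0.79, SE 0.43, adjusted p = 0.259), with eXEN-1 the low library. Pdgfra, the receptor that marks primitive endoderm, overlapped as well, at 144, 146 and 172 FPKM in late intermediates and 157, 187 and 88.1 FPKM in XEN cells.

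Gata6, the factor that sets primitive endoderm apart from epiblast, had 64.1, 74.9 and 74.7 FPKM in late intermediates and 208, 109 and 112 FPKM in XEN cells. Every late library was below every XEN library, but the difference was not called (log2 difference -0.93, SE 0.28, adjusted p = 0.0739). Foxa2, an endoderm pioneer factor, had the same layout, with 81.4, 72.4 and 66.4 FPKM in late intermediates and 176, 123 and 94.4 FPKM in XEN cells (adjusted p = 0.0869), and was called with file status as a covariate (log2 difference -1.33). Sox7, an endoderm factor of the Sox17 family, fell to 49.98, 53.1 and 48.9 FPKM in late intermediates, against 150, 125 and 177 FPKM in XEN cells (log2 difference -1.54, SE 0.18, adjusted p = 0.00719). Sox7 kept its call in each fit without 1 library. Dab2, an endocytic adaptor of primitive endoderm, had 83.1, 115 and 226 FPKM in late intermediates and 31.2, 68.7 and 81.1 FPKM in XEN cells (log2 difference 1.20, SE 0.48, adjusted p = 0.144), and Day28 alone differed by 1.99.

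The 2 higher members were Foxq1 and Lgals2. Foxq1, a forkhead factor, had 54.5, 50.3 and 82.8 FPKM in late intermediates, against 24.5, 28.5 and 16.1 FPKM in XEN cells (log2 difference 1.41, SE 0.29, adjusted p = 0.0276). Lgals2, a galectin, had 2.09, 1.82 and 3.79 FPKM in late intermediates, against 0.126, 0.243 and 0 FPKM in XEN cells (log2 difference 1.63, SE 0.27, adjusted p = 0.0166). Both groups of values stood apart, though the Foxq1 call was lost without Day20, Day26, Day28 or CeXEN replicate 1 (adjusted p 0.0685 to 0.0784) and the Lgals2 call without Day20 or CeXEN replicate 1 (0.0511 and 0.0586). After quantile normalization Lgals2 was not called (adjusted p = 0.0834). Neither was called with file status as a covariate, at log2 differences of 0.83 for Foxq1 and 0.25 for Lgals2, and Foxq1 was not called with eXEN-2 added.

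Sall4 and Lin28a, which pluripotent and XEN cells both express, were lower in late intermediates. Lin28a, the RNA-binding protein that blocks let-7 processing, fell to 46.6, 35.0 and 32.4 FPKM in late intermediates, against 165, 166 and 204 FPKM in XEN cells (log2 difference -2.21, SE 0.20, adjusted p = 0.00374). Sall4, a zinc-finger factor of early embryonic lineages, fell to 34.6, 31.5 and 39.6 FPKM in late intermediates, against 77.3, 124 and 74.9 FPKM in XEN cells (log2 difference -1.33, SE 0.24, adjusted p = 0.0199). The Lin28a call held without any single library, whereas the Sall4 call was lost without Day20, Day26 or CeXEN replicate 1 (adjusted p 0.0520 to 0.0785). The Lin28a difference was -1.22 with file status as a covariate, and still called.

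Pluripotency genes were mixed. Of 30 listed, 22 were tested, 5 were higher and 3 lower (Lin28a, Sall4 and Mycn), and the median log2 difference was 0.66. Without CeXEN replicate 1 the list had 3 higher and 1 lower, and without Day20 or Day26 it had 1 lower. Without eXEN-1 the median was 0.33. Esrrb, an orphan nuclear receptor of the naive network, rose to 19.7, 25.0 and 39.1 FPKM in late intermediates, against 0, 0.0945 and 0.0518 FPKM in XEN cells (log2 difference 4.73, SE 0.28, adjusted p = 0.00226). Nr0b1 (Dax1), a nuclear receptor partner in that network, rose to 25.8, 13.0 and 22.0 FPKM in late intermediates and was listed at 0 in all 3 XEN libraries (log2 difference 4.36, SE 0.28, adjusted p = 0.00257). The groups were far apart for both genes. Tdgf1 (Cripto), a co-receptor for Nodal, had 40.8, 12.5 and 32.2 FPKM in late intermediates, against 0, 0.0532 and 0.0699 FPKM in XEN cells (log2 difference 4.67, SE 0.42, adjusted p = 0.00397). These 3 calls held in each fit without 1 library. For Day28 alone, where the spread comes from the XEN libraries only, the log2 differences of Esrrb, Nr0b1 and Tdgf1 were 5.26, 4.52 and 4.99. They were 2.89, 2.14 and 1.79 with file status as a covariate, and still called.

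Dppa5a, an RNA-binding protein typical of pluripotent cells, had 97.2, 558 and 249 FPKM in late intermediates, against 4.47, 21.3 and 0.973 FPKM in XEN cells (log2 difference 5.27, SE 0.97, adjusted p = 0.0214). Day26 was the highest library, and the call was lost without Day26, Day28 or CeXEN replicate 1 (adjusted p 0.0653 to 0.0733). Mycn, a Myc family factor, was lower at 19.9, 16.1 and 20.9 FPKM in late intermediates, against 47.2, 31.2 and 45.1 FPKM in XEN cells. Its log2 difference was -1.07 (SE 0.22, adjusted p = 0.0279), and the call was lost without any single library but CeXEN replicate 2 (adjusted p 0.0544 to 0.106). File status as a covariate ended both calls, at log2 differences of 1.09 for Dppa5a and -0.71 for Mycn.

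The central factors of the network were not called. Pou5f1 (Oct4) had 0.427, 18.9 and 6.23 FPKM in late intermediates, against 0.216, 0.821 and 0.235 FPKM in XEN cells (log2 difference 2.08, SE 0.89, adjusted p = 0.166). Day26 and Day28 were above all XEN libraries and Day20 was not. Sox2 had 4.51, 8.65 and 10.6 FPKM in late intermediates and 2.25, 16.2 and 0.0268 FPKM in XEN cells (adjusted p = 0.459), with CeXEN replicate 2 the highest of all 6 libraries. Nanog had 1.43, 2.79 and 1.17 FPKM in late intermediates and 0.375, 0.627 and 0.134 FPKM in XEN cells (log2 difference 0.99, SE 0.29, adjusted p = 0.0726). The summed level of Pou5f1, Nanog, Sox2, Esrrb and Zfp42 was 27.8, 59.96 and 60.7 FPKM in late intermediates and 17.3, 30.0 and 0.561 FPKM in XEN cells, against 1531 and 1644 FPKM in embryonic stem cells.

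**Figure D2:**
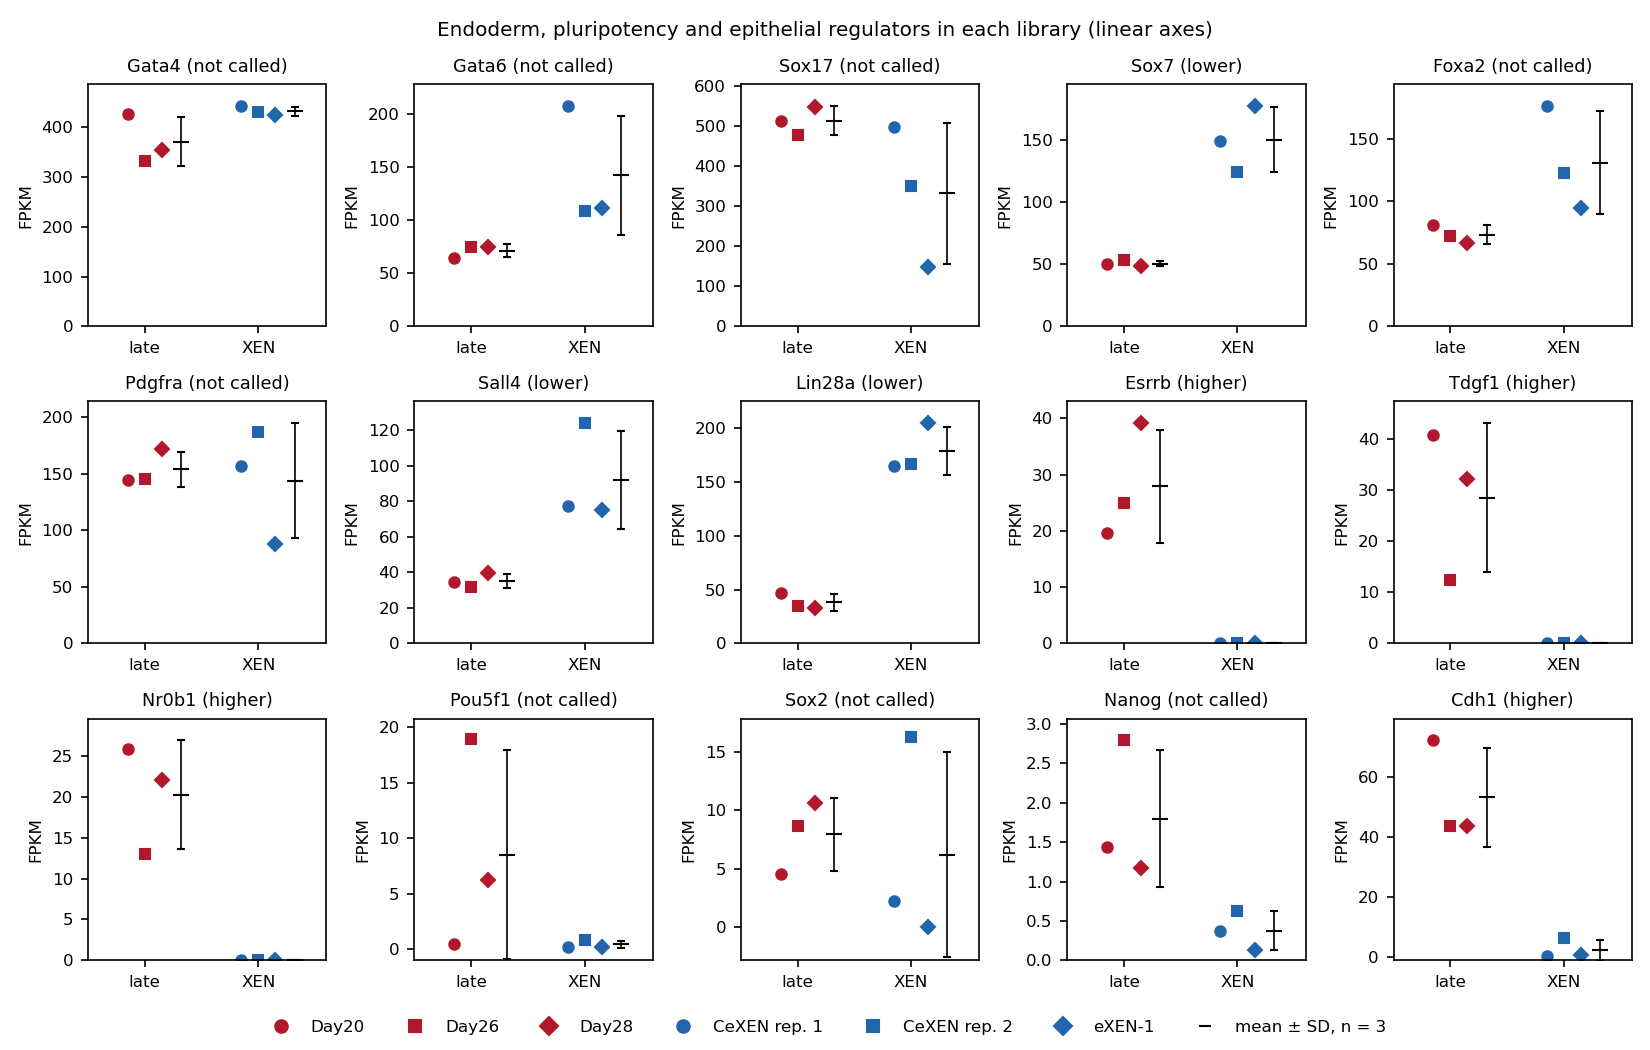
Level (FPKM, linear y axes that differ between panels) of 15 regulators in each late library (red, left) and XEN library (blue, right), with mean and SD of each arm in black. Gata4, Sox17 and Pdgfra overlap, Sox7, Sall4 and Lin28a are lower in late intermediates, and Esrrb, Tdgf1, Nr0b1 and Cdh1 are near 0 or low in XEN cells.

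Epithelial genes were the list with the largest share of calls among those described here. All 25 listed genes were tested, 17 were higher and none lower, with a median log2 difference of 2.38. All late libraries lay above all XEN libraries for 19 members, and for 26.5% of all genes tested. The count was 11 without Day20, 12 without Day28, 12 without CeXEN replicate 1 and 15 to 18 in the other fits, and 11 members were called in each of the 6 fits. After quantile normalization 16 were higher.

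Cldn4, a claudin of tight junctions, had the largest log2 difference among the named genes, at 86.5, 113 and 137 FPKM in late intermediates, against 0.187, 1.20 and 0.0749 FPKM in XEN cells (log2 difference 6.30, SE 0.33, adjusted p = 0.00118). Spint2, a membrane inhibitor of serine proteases, had 462, 342 and 422 FPKM in late intermediates, against 8.41, 63.6 and 0.865 FPKM in XEN cells (log2 difference 5.28, SE 1.16, adjusted p = 0.0329). The XEN libraries differed widely among themselves for Spint2, and its call was lost without Day20, Day26, Day28 or CeXEN replicate 1 (adjusted p 0.0925 to 0.106). Crb3, a small apical protein of the polarity complex, had 51.2, 32.3 and 39.9 FPKM in late intermediates, against 0, 1.09 and 0.0601 FPKM in XEN cells (log2 difference 4.99, SE 0.35, adjusted p = 0.00269). Cdh1 (E-cadherin), the adhesion molecule of epithelia, had 72.4, 43.7 and 43.8 FPKM in late intermediates, against 0.134, 6.26 and 0.607 FPKM in XEN cells (log2 difference 4.48, SE 0.68, adjusted p = 0.0138). In both, CeXEN replicate 2 was the highest XEN library. The Cdh1 call was lost without Day20 (adjusted p = 0.0537). With file status as a covariate Cldn4 differed by 4.08 and Cdh1 by 2.94, and both were called. With no filter on low values Spint2 was not called.

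Promoters of these genes were searched for CAGGTG, the E-box through which Snail and Zeb repressors are known to act on E-cadherin, on both strands of 300 bases (250 before to 50 after the start) in RefSeq promoters of GRCm38.p6. The letters read CACCTG on the other strand. They were in at least 1 window of 10 of the 12 higher members with a window, and in 5 of the 5 members with a window that were not called. Cdh1 (E-cadherin) itself had no window and was not searched. Among all 27025 genes with a window, 22.6% held the letters, and among the 9285 tested genes with a window 21.04% did. The 3 windows shown belong to the claudin with the largest difference and to the 2 other epithelial members among the 12 highest genes, and their CAGGTG and CACCTG are in capitals. Cldn4 (chr5:134946885-134947184, minus strand) held 2 matches, Spint2 (chr7:29281928-29282227, minus strand) held 3 and Crb3 (chr17:57061951-57062250, plus strand, 1 of 2 windows of the gene) held 4, and 0.377% of tested genes with a window held 3 or more. A match is no evidence that a factor binds.
Cldn4: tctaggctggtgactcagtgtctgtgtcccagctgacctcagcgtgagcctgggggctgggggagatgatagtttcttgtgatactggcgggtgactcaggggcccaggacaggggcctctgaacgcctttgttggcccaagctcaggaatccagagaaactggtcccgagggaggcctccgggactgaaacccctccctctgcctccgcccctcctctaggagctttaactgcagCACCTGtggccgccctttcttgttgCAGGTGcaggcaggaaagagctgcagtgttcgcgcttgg
Spint2: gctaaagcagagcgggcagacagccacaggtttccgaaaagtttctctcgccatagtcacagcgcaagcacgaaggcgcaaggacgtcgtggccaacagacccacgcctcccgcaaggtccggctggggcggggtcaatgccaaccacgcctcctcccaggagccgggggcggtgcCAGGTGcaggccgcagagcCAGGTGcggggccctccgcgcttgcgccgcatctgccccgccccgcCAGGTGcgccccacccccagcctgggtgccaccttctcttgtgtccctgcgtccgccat
Crb3: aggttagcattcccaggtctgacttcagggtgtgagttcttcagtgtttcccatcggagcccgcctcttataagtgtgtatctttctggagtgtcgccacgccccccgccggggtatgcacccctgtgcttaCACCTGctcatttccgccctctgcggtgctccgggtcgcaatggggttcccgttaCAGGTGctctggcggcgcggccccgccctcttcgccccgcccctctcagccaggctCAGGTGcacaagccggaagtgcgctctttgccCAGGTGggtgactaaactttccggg

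Other junction and polarity members were higher by less. Among the 17, log2 differences ran down to 1.62 for Jup (plakoglobin, which links cadherins to the cytoskeleton), with 31.2, 17.8 and 26.8 FPKM in late intermediates and 5.63, 9.90 and 7.01 FPKM in XEN cells. The Jup call was lost without Day20, Day28 or CeXEN replicate 1 (adjusted p 0.0610 to 0.0725) and with eXEN-2 added (log2 difference 0.64). St14 (matriptase), a membrane serine protease that Spint1 and Spint2 inhibit, had 52.8, 37.1 and 47.4 FPKM in late intermediates, against 1.30, 4.48 and 0.345 FPKM in XEN cells (log2 difference 4.17, SE 0.50, adjusted p = 0.00760). Grhl2, a transcription factor of epithelial genes, was low in both arms but stood apart, at 4.70, 5.04 and 4.83 FPKM in late intermediates and 0.0147, 0.547 and 0.231 FPKM in XEN cells (log2 difference 2.23, SE 0.23, adjusted p = 0.00526), and with file status as a covariate it differed by 0.98 and was not called. Genes named in this paragraph were chosen after their values were seen.

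Of the 8 epithelial members that were not called, Epcam and the keratins were at high levels in both CeXEN libraries. Epcam, an epithelial adhesion molecule, had 191, 164 and 174 FPKM in late intermediates and 167, 133 and 9.18 FPKM in XEN cells (log2 difference 1.53, SE 1.01, adjusted p = 0.345), with eXEN-1 the low library. Krt8, a keratin of simple epithelia, had 641, 468 and 343 FPKM in late intermediates and 445, 484 and 177 FPKM in XEN cells (adjusted p = 0.494). The remainder were Krt18, Krt19, Cldn6, Dsp, Dsg2 and Pkp2.

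**Figure D3:**
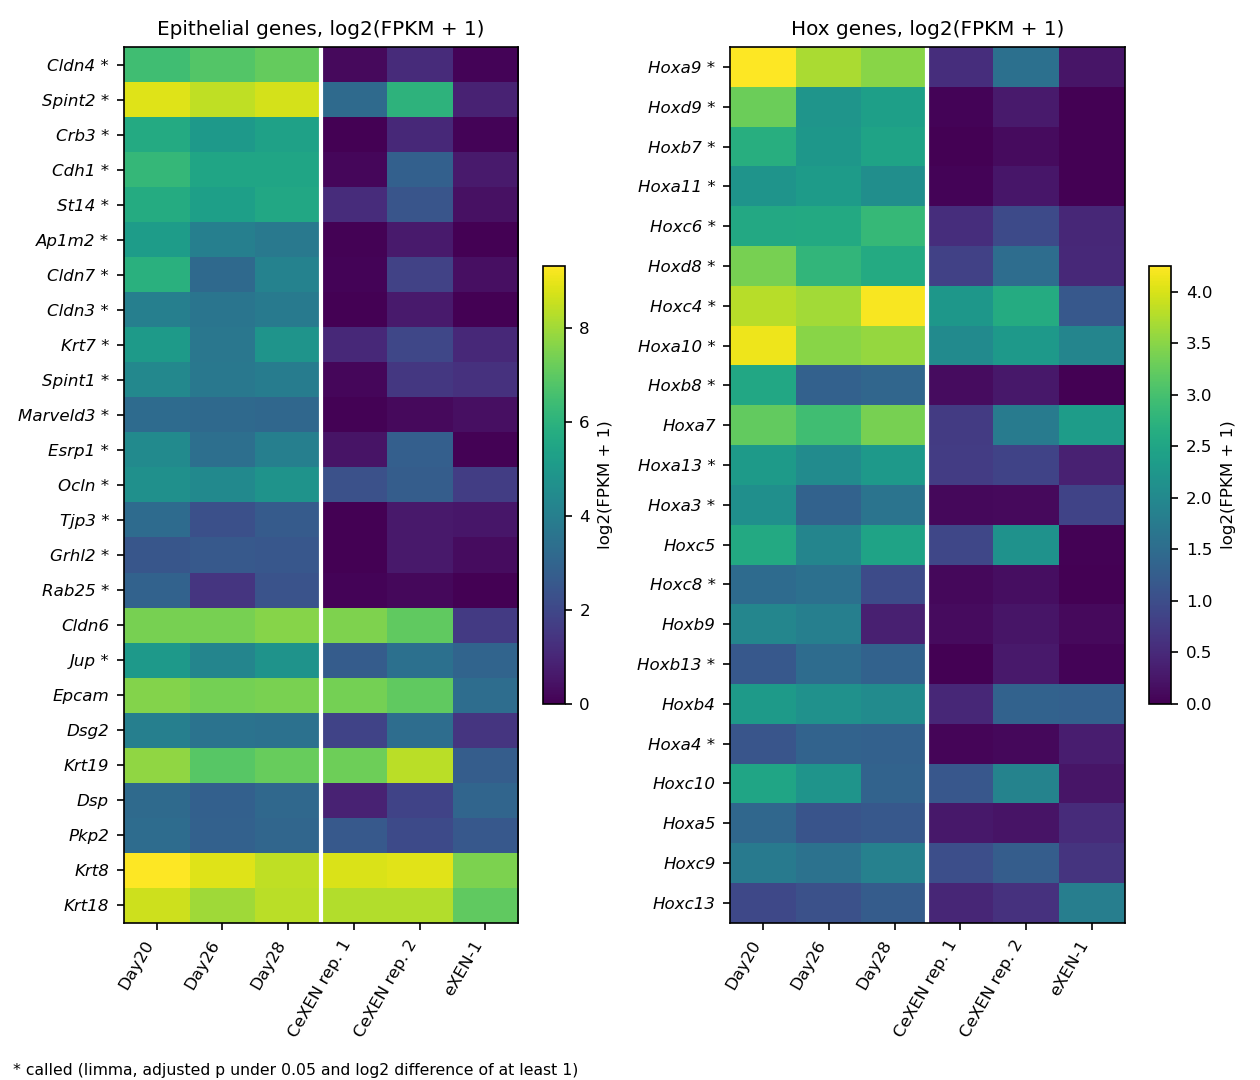
Level as log2(FPKM + 1) of the 25 epithelial genes (left) and 22 of the Hox genes tested (right), with the 3 late libraries left of the 3 XEN libraries and called genes marked by a star. Colour scales run from 0 to the highest value of each panel. The upper rows are bright in late intermediates and dark in XEN cells, and CeXEN replicate 2 is brighter than the other XEN libraries in several rows.

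Other genes with large rises encode secreted, detoxifying and membrane proteins. Zg16, a secreted lectin of intestinal goblet cells, had 43.6, 51.0 and 58.6 FPKM in late intermediates, against 0.113, 0 and 0 FPKM in XEN cells (log2 difference 5.64, SE 0.20), and its adjusted p of 0.000417 was the smallest of all genes. Adh1, an alcohol dehydrogenase that also oxidizes retinol, had 61.4, 48.0 and 63.4 FPKM in late intermediates, against 0.0546, 1.92 and 0.140 FPKM in XEN cells (log2 difference 5.26, SE 0.41, adjusted p = 0.00295). Pllp (plasmolipin), a membrane protein of myelin and epithelia, had 38.5, 31.5 and 42.1 FPKM in late intermediates, against 0.0297, 0.653 and 0.0714 FPKM in XEN cells (log2 difference 4.96, SE 0.26, adjusted p = 0.00118). Zg16 and Pllp were under 1 FPKM in each XEN library, and Adh1 reached 1.92 FPKM in CeXEN replicate 2. All 3 genes held their calls without any single library. With file status as a covariate Zg16 differed by 1.99 and Pllp by 2.72, and both were called. Sprr2a2, a cornified envelope gene, had 359, 102 and 162 FPKM in late intermediates, against 0.420, 10.4 and 1.07 FPKM in XEN cells (log2 difference 5.82, SE 0.84, adjusted p = 0.0120). Its near-identical neighbours may share reads with it, so its own level is uncertain.

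A list of 20 secreted and transport proteins had 17 tested members, 5 higher and none lower, with a median of 2.38. The count ranged over 1, 2, 4 and 3 without Day20, Day26, Day28 and CeXEN replicate 1, and was 8 without CeXEN replicate 2. Without eXEN-1 there were 3 higher and 2 lower, with a median of 1.57. Wfdc2, a small secreted protease inhibitor of epithelia, had 30.3, 52.9 and 30.2 FPKM in late intermediates, against 0, 1.00 and 0.280 FPKM in XEN cells (log2 difference 4.78, SE 0.35, adjusted p = 0.00270) and kept its call without any single library. S100g (calbindin-D9k), a calcium-binding protein of absorptive epithelia, was among the most abundant genes at 7563, 10895 and 9025 FPKM in late intermediates, against 658, 2594 and 559 FPKM in XEN cells. Its log2 difference was 3.20 (SE 0.59, adjusted p = 0.0210), and the call was lost without Day20, Day26, Day28 or CeXEN replicate 1 (adjusted p 0.0632 to 0.0782), with file status as a covariate (log2 difference 2.93), with no filter and with eXEN-2 added (5.06). Wfdc2 differed by 2.84 with that covariate and was called.

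Spp1 (osteopontin), a secreted matrix phosphoprotein, had 231, 1014 and 42.6 FPKM in late intermediates, against 2.77, 20.2 and 2.67 FPKM in XEN cells (log2 difference 5.03, SE 1.21, adjusted p = 0.0423). Day26 was the highest late library and Day28 the lowest, and both lay above every XEN library. The call was lost without Day20, Day26, CeXEN replicate 1 or eXEN-1 (adjusted p 0.0926 to 0.129), and Day28 alone differed by 2.72. Pla2g5, a secreted phospholipase, had 158, 77.0 and 59.5 FPKM in late intermediates, against 0.218, 17.7 and 9.31 FPKM in XEN cells (log2 difference 3.88, SE 0.99, adjusted p = 0.04996). That call was lost without Day20, Day26, Day28 or eXEN-1 (adjusted p 0.0700 to 0.156). Sepp1 (selenoprotein P) had 617, 252 and 14.2 FPKM in late intermediates, against 2.05, 2.48 and 0.378 FPKM in XEN cells (log2 difference 5.77, SE 1.30, adjusted p = 0.0353). It is the 1 called gene among 22 selenoprotein genes tested, Day28 alone differed by 2.63, and the call was lost without Day20, Day26, CeXEN replicate 1, CeXEN replicate 2 or eXEN-1 (adjusted p 0.0526 to 0.119). The calls of Sepp1 (0.88) and Pla2g5 (1.21) were lost with file status as a covariate. With no filter on low values Spp1, Pla2g5 and Sepp1 were not called.

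The lower genes had smaller differences, apart from Mageb16. Mageb16, an X-linked gene of the melanoma antigen family, had 0.0467, 0.403 and 0.153 FPKM in late intermediates, against 21.7, 23.2 and 25.6 FPKM in XEN cells (log2 difference -4.36, SE 0.21, adjusted p = 0.00104). Sfmbt2, a Polycomb group gene on chromosome 2 that is needed in extraembryonic tissue, had 3.35, 4.29 and 2.93 FPKM in late intermediates, against 18.5, 35.5 and 37.5 FPKM in XEN cells (log2 difference -2.75, SE 0.31, adjusted p = 0.00659). Both held without any single library. Vim, the intermediate filament of mesenchymal cells and of parietal endoderm, had 115, 147 and 74.0 FPKM in late intermediates, against 518, 522 and 549 FPKM in XEN cells (log2 difference -2.29, SE 0.26, adjusted p = 0.00717). Its level in fibroblasts was 3323 and 2247 FPKM, so every late library was below both XEN cells and fibroblasts. Its log2 difference was -0.67 with file status as a covariate, and was not called.

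Ak4, a mitochondrial adenylate kinase, had 18.0, 10.7 and 14.4 FPKM in late intermediates, against 68.6, 120 and 67.1 FPKM in XEN cells (log2 difference -2.46, SE 0.30, adjusted p = 0.00774). Pcbp4, an RNA-binding protein of the poly(C) family, had 21.8, 19.5 and 15.3 FPKM in late intermediates, against 90.2, 109 and 98.8 FPKM in XEN cells (log2 difference -2.34, SE 0.19, adjusted p = 0.00303). Neither call was lost in any fit without 1 library, but with file status as a covariate neither was called (log2 difference -2.54 for Ak4 and -1.19 for Pcbp4). The other genes among the 12 lowest were Plekha2, Trap1a, Hist1h2ap, Drp2, Eml1 and C2cd4a, with log2 differences of -2.49 to -2.21 and adjusted p of 0.0158 to 0.0363, beside Lin28a. Each of these 6 calls was lost without Day20, with further losses without Day26 (Hist1h2ap, Drp2, C2cd4a), Day28 (all but Plekha2), CeXEN replicate 1 (Plekha2, Trap1a, C2cd4a) or CeXEN replicate 2 (Trap1a), at adjusted p of 0.0502 to 0.117. The fit with that covariate did not call Plekha2 (-1.80) or Eml1 (-1.56), and Trap1a differed by -4.43 in it, while with no filter Trap1a was not called.

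Genes of retinoic acid metabolism and response had 25 listed members, of which 21 were tested, 5 were higher and none lower, with a median log2 difference of 1.48. All late libraries lay above all XEN libraries for 15 members, and for 26.5% of all genes tested. The count was 2 without Day20, 3 without CeXEN replicate 1 and 4 to 8 in the other fits, 8 being without eXEN-1. Cyp26b1, a P450 enzyme that breaks down retinoic acid, had 46.5, 54.4 and 29.5 FPKM in late intermediates, against 0.123, 0.823 and 0.229 FPKM in XEN cells (log2 difference 4.99, SE 0.31, adjusted p = 0.00227). Cyp26c1, a related enzyme, had 20.2, 16.2 and 41.6 FPKM in late intermediates, against 2.17, 2.20 and 0.0389 FPKM in XEN cells (log2 difference 3.51, SE 0.54, adjusted p = 0.0145), and its call was lost without Day20 (adjusted p = 0.0506). Cyp26a1, the third enzyme of the family, had 784, 515 and 779 FPKM in late intermediates and 152, 146 and 5.05 FPKM in XEN cells. The late libraries were the higher in all 3 enzymes, but Cyp26a1, named for its family after its values were seen, was not called (log2 difference 3.73, SE 1.21, adjusted p = 0.0911). Stra8, a retinoic acid target best known from germ cells entering meiosis, had 2.38, 5.21 and 4.28 FPKM in late intermediates, against 0, 0.184 and 0 FPKM in XEN cells (log2 difference 2.18, SE 0.28, adjusted p = 0.00984). Aldh1a3, an enzyme that makes retinoic acid, was also called, and kept its call in 1 fit alone, that without eXEN-1 (adjusted p 0.0564 to 0.117 in the others). Neither Stra8 nor Aldh1a3 (log2 difference 1.02) was called with file status as a covariate. Aldh1a3 was also not called with no filter or after quantile normalization.

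Hox genes, the clustered homeobox factors that give cells of the body axis their position, were higher in 15 of the 23 tested and lower in none. The list holds 39 Hox genes, and 16 were below the filter. Its median was 1.55, and 20 of the 23 had every late library above every XEN library, against 26.5% of all genes tested. The count was 6 without Day20, 8 without Day26, 7 without CeXEN replicate 1 and 12 to 15 in the other fits, and after quantile normalization it was 9. The 6 members Hoxa9, Hoxa10, Hoxa11, Hoxb7, Hoxc6 and Hoxd9 were called in each fit without 1 library.

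Hoxa9 had 18.0, 12.1 and 10.2 FPKM in late intermediates, against 0.477, 1.96 and 0.184 FPKM in XEN cells (log2 difference 3.03, SE 0.40, adjusted p = 0.00984). Hoxd9 had 8.76, 3.65 and 4.24 FPKM in late intermediates, against 0.0260, 0.237 and 0 FPKM in XEN cells (log2 difference 2.52, SE 0.33, adjusted p = 0.00972). Hoxb7 had 5.32, 3.73 and 4.54 FPKM in late intermediates, against 0, 0.0846 and 0 FPKM in XEN cells (log2 difference 2.42, SE 0.21, adjusted p = 0.00372). These genes are from 3 of the 4 clusters. Hoxb7 and Hoxd9 were at or near 0 in XEN cells, whereas Hoxa9 reached 1.96 FPKM in CeXEN replicate 2. Fibroblasts, the source of the late intermediates, had 8.22 and 10.4 FPKM of Hoxa9, 4.89 and 4.72 FPKM of Hoxb7 and 2.21 and 3.67 FPKM of Hoxd9.

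Signalling genes of the Nodal, activin and BMP family had 6 higher and no lower members among 21 tested of 28 listed, with a median of 1.07. Without Day20, Day26 and CeXEN replicate 1 the count was 2, 2 and 1, and without eXEN-1 it was 4 higher and 1 lower. Beside Tdgf1, the largest were Inhbb, Cfc1 and Bmp7. Inhbb, the activin B subunit, had 28.1, 48.1 and 5.54 FPKM in late intermediates, against 0.385, 1.47 and 0.359 FPKM in XEN cells (log2 difference 3.66, SE 0.73, adjusted p = 0.0262). Cfc1 (Cryptic), a co-receptor related to Tdgf1, had 8.45, 6.402 and 9.69 FPKM in late intermediates, against 1.31, 2.32 and 0.142 FPKM in XEN cells (log2 difference 2.14, SE 0.41, adjusted p = 0.0238). Bmp7, a BMP ligand, had 2.92, 5.36 and 1.88 FPKM in late intermediates, against 0.0624, 0.264 and 0.0175 FPKM in XEN cells (log2 difference 1.91, SE 0.33, adjusted p = 0.0181). The arms stood apart for these 3 genes, yet each call was lost without Day20 or CeXEN replicate 1, those of Inhbb and Cfc1 also without Day26, Inhbb without eXEN-1 and Cfc1 without Day28 (adjusted p 0.0581 to 0.0934). Day28 alone differed by 1.97 for Inhbb. Cfc1 (0.34) and Bmp7 (1.83) were not called with file status as a covariate. Bmp7 was not called after quantile normalization, Inhbb with no filter, and Cfc1 with no filter or with eXEN-2 added.

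Wnt pathway genes had 4 higher members (Apcdd1, Dkk1, Cdx2 and Rnf43) and none lower among 16 tested of 21 listed, with a median of 1.02. The count was 2 without Day20 or Day28 and 1 without Day26 or CeXEN replicate 1. Apcdd1, a membrane inhibitor of Wnt, had 27.4, 43.0 and 32.4 FPKM in late intermediates, against 5.79, 11.5 and 10.1 FPKM in XEN cells (log2 difference 1.82, SE 0.29, adjusted p = 0.0153, and 0.0595 without Day26). Dkk1, a secreted Wnt inhibitor, had 13.9, 29.1 and 29.3 FPKM in late intermediates, against 5.82, 6.46 and 5.08 FPKM in XEN cells (log2 difference 1.82, SE 0.31, adjusted p = 0.0181). That call was lost without Day26, Day28 or CeXEN replicate 1 (adjusted p 0.0573 to 0.0704). Among 20 tested genes of the FGF pathway, 1 was higher and 1 lower. The FGF receptors differed in opposite directions. Fgfr2 had 3.37, 2.98 and 3.44 FPKM in late intermediates, against 0.501, 1.06 and 0.275 FPKM in XEN cells (log2 difference 1.43, SE 0.25, adjusted p = 0.0183), and was lost without Day20, Day26 or CeXEN replicate 1 (adjusted p 0.0616 to 0.0665). Fgfr3 had 0.942, 0.819 and 1.51 FPKM in late intermediates, against 7.21, 7.34 and 5.56 FPKM in XEN cells (log2 difference -1.89, SE 0.23, adjusted p = 0.00781), and kept its call without any single library. With file status as a covariate neither receptor was called (1.61 for Fgfr2 and -1.88 for Fgfr3), and Fgfr3 was not called with eXEN-2 added. The FGF list's median was 0.04, and its sign changed between fits without 1 library. After quantile normalization it was -0.33, with 2 lower members and none higher, so that Fgfr2 was not called.

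Parietal endoderm and basement membrane genes such as Lamb1 and Lama1 were at high levels in both arms. All 25 listed were tested, none was higher and 2 were lower (Vim and Lamb1), with a median of -0.13. With eXEN-1 as the only XEN library the median was 0.48. Lamb1, a laminin chain of that membrane, had 533, 447 and 509 FPKM in late intermediates, against 1033, 1003 and 1426 FPKM in XEN cells (log2 difference -1.20, SE 0.21, adjusted p = 0.0189), and its call was lost without Day20, Day26, Day28 or CeXEN replicate 1 (adjusted p 0.0527 to 0.0800). It was also lost after quantile normalization, with eXEN-2 added and with file status as a covariate (log2 difference -1.04). Without CeXEN replicate 2 there were 4 lower members, without eXEN-1 there were 5, and in each of the other 4 fits without 1 library there was 1, while the median ran from -0.42 without eXEN-1 to 0.07 without CeXEN replicate 2. Lama1, its partner chain, had 400, 330 and 275 FPKM in late intermediates and 578, 352 and 921 FPKM in XEN cells (log2 difference -0.79, SE 0.36, adjusted p = 0.193). Visceral endoderm genes had 4 higher members (Apoa1, Dkk1, Apoa4 and Trf) and none lower among 16 tested of 24 listed, with a median of 0.89, and the count was 0 without Day26 or CeXEN replicate 1 and 2 without Day20. Without eXEN-1 there were 2 higher and 1 lower, and without CeXEN replicate 1 the median was 0.57. After quantile normalization 1 member was higher. Apoa1, the main protein of high-density lipoprotein, had 3.54, 3.54 and 26.7 FPKM in late intermediates, against 0.123, 0.466 and 0 FPKM in XEN cells (log2 difference 2.81, SE 0.71, adjusted p = 0.0486). Its Day28 library stood above the other late libraries, and of the 6 fits without 1 library only that without Day28 kept the call (adjusted p 0.0659 to 0.120 in the others). Day28 alone differed by 4.55, and the call was lost after quantile normalization and with no filter.

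In a set of genes eXEN-1 lay far below the CeXEN libraries and the late intermediates alike. Its log2 value was at least 2 below all 5 other libraries for 134 genes, of which 127 were not called, and at least 2 above them for 22 genes. Col4a1, the basement membrane collagen, had 1667, 1382 and 1758 FPKM in late intermediates and 2400, 2364 and 88.6 FPKM in XEN cells (log2 difference 1.00, SE 1.23, adjusted p = 0.619). Its neighbour Col4a2 had 1144, 870 and 1168 FPKM in late intermediates and 1542, 1492 and 65.0 FPKM in XEN cells. For both chains the CeXEN libraries were the highest and eXEN-1 the lowest. eXEN-2, the same line in conventional medium, had 218 FPKM of Col4a1 and 146 FPKM of Col4a2. The noncoding RNAs Meg3 and Rian, from an imprinted cluster on chromosome 12, were also lowest in eXEN-1, but here both CeXEN libraries lay below every late library. Meg3 had 152, 102 and 295 FPKM in late intermediates and 58.7, 82.1 and 0.0568 FPKM in XEN cells, and Rian had 573, 355 and 478 FPKM in late intermediates and 248, 274 and 0.610 FPKM in XEN cells. eXEN-1 is a single library of a different line and a different mix of small molecules, which cannot be told apart. These genes were chosen after their values were seen.

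**Figure D4:**
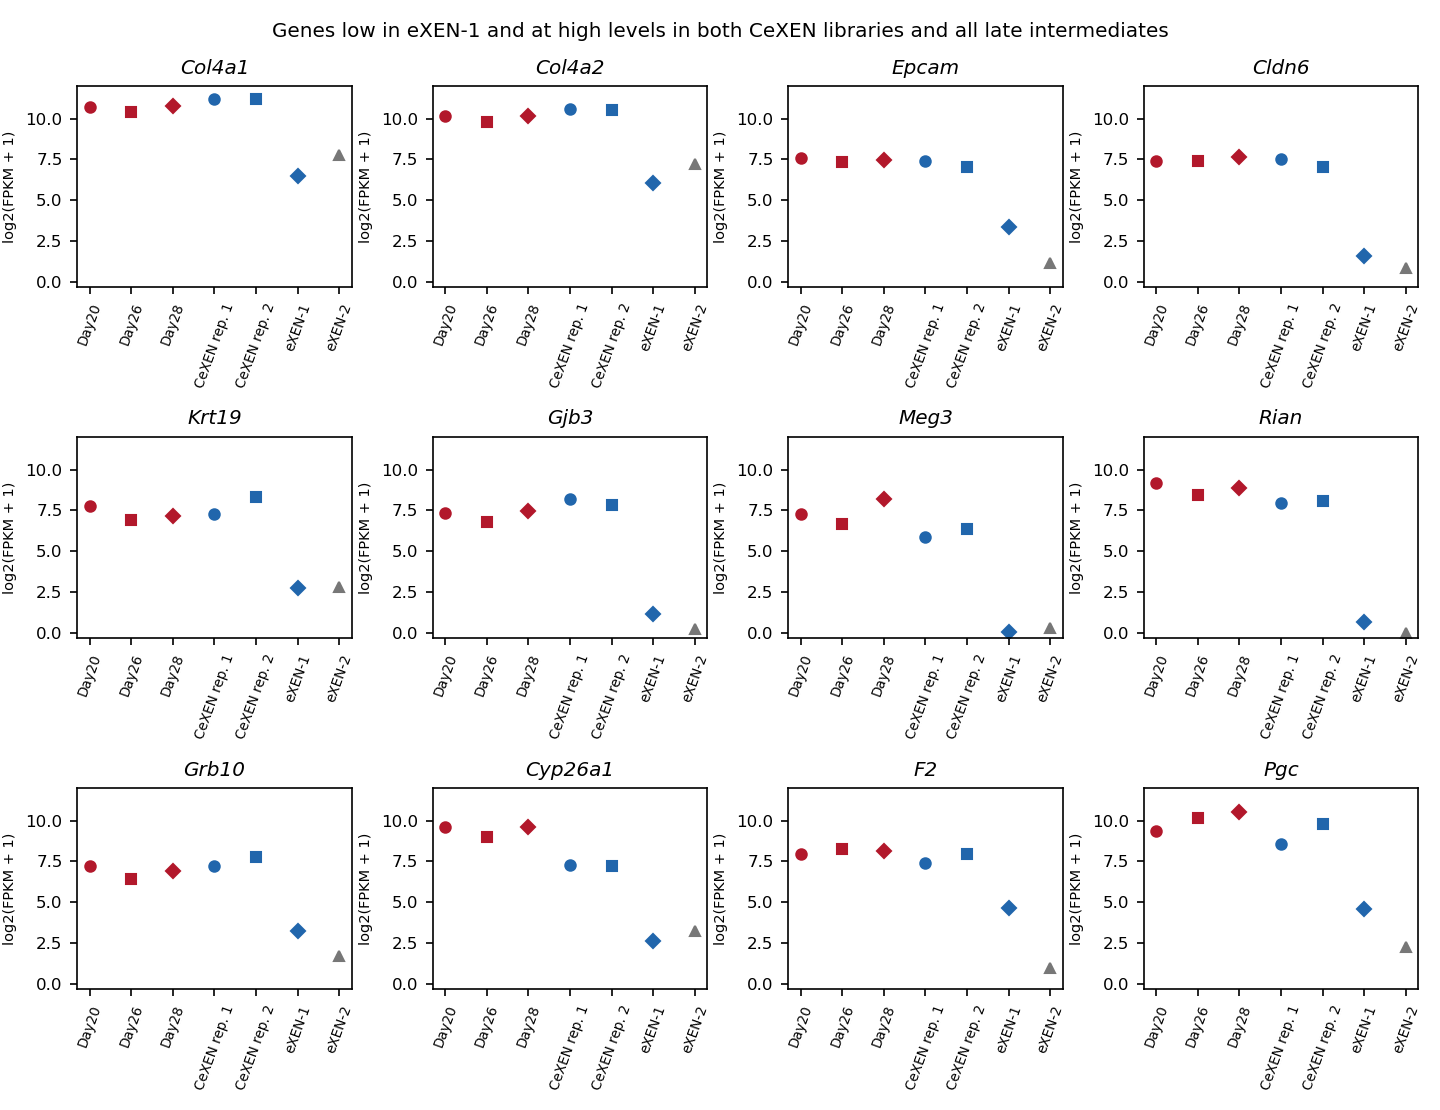
Level as log2(FPKM + 1) of 12 genes, chosen after their values were seen, in the late libraries (red), the XEN libraries of the comparison (blue) and eXEN-2 in conventional medium (grey, not in the fit). In each panel eXEN-1 lies below the other 5 libraries of the comparison, and eXEN-2 is low as well.

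Dlk1, a protein-coding gene of the same imprinted cluster, was called. This Notch-related membrane protein had 118, 116 and 324 FPKM in late intermediates, against 0.599, 14.02 and 0.0873 FPKM in XEN cells (log2 difference 5.80, SE 1.00, adjusted p = 0.0181). Both CeXEN libraries, which expressed Meg3 and Rian, were low for Dlk1. The call was lost without Day20, Day26, Day28 or CeXEN replicate 1 (adjusted p 0.0573 to 0.0624). Among 22 tested imprinted genes of 28 listed, Dlk1 and Slc22a18 were higher and Gnas was lower, with a median of 0.53. The share of higher members was near the 8.44% of all genes tested. The counts of this list were 0 without Day20, Day26 or Day28, and no member was higher without CeXEN replicate 1. Without CeXEN replicate 2 there were 3 higher with a median of 0.82, and without eXEN-1 there was 1 with a median of 0.15. Gnas, which encodes the stimulatory G protein alpha subunit, had 170, 171 and 147 FPKM in late intermediates, against 372, 676 and 376 FPKM in XEN cells (log2 difference -1.48, SE 0.27, adjusted p = 0.0205, and 0.0638 to 0.0709 without Day20, Day26 or Day28). With file status as a covariate Gnas differed by -0.97 and was not called.

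Genes of glycolysis, cholesterol synthesis and the cell cycle had the most lower calls of the lists. Of 25 genes of glycolysis and the hypoxia response, all tested, 6 were lower and none higher, with a median of -0.90, and every late library was below every XEN library for 17. Of 28 tested genes of cholesterol and lipid synthesis (30 listed), 6 were lower and none higher, with a median of -0.79 and 16 members wholly below. Of 28 tested cell cycle genes (30 listed), 4 were lower and none higher, with a median of -0.61 and 18 members wholly below. Over all genes tested, 1.82% were lower and 12.6% lay wholly below. The medians of these lists were -1.03, -0.94 and -0.89 for Day28 alone. The counts of lower members depended on single libraries. They were 3, 2 and 2 without Day20, 1, 1 and 0 without Day26, 3, 3 and 2 without Day28, 1, 2 and 2 without CeXEN replicate 1 and 4, 3 and 3 without CeXEN replicate 2, for glycolysis, cholesterol and cell cycle in turn.

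Slc2a3, a glucose transporter, had 255, 251 and 255 FPKM in late intermediates, against 725, 614 and 965 FPKM in XEN cells (log2 difference -1.57, SE 0.21, adjusted p = 0.01). Pgk1, a glycolytic kinase, had 107, 92.9 and 49.0 FPKM in late intermediates, against 216, 213 and 472 FPKM in XEN cells (log2 difference -1.81, SE 0.42, adjusted p = 0.0378). Egln3, an oxygen-sensing prolyl hydroxylase, had 35.0, 19.2 and 27.1 FPKM in late intermediates, against 88.6, 82.1 and 65.8 FPKM in XEN cells (log2 difference -1.53, SE 0.25, adjusted p = 0.0162). No late library reached the lowest XEN library for any of these. The Slc2a3 call held without any single library. The Pgk1 call was lost without any single library but CeXEN replicate 2 (adjusted p 0.0571 to 0.0995), and the Egln3 call without Day26 or CeXEN replicate 1 (0.05005 and 0.0586). Neither was called with file status as a covariate (-1.34 for Pgk1 and -1.56 for Egln3), and Pgk1 was not called after quantile normalization or with no filter. The other lower members were Pkm, Aldoa and Ldha.

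Cyp51, a demethylase of sterol synthesis, had 16.9, 13.5 and 11.3 FPKM in late intermediates, against 50.3, 62.8 and 45.6 FPKM in XEN cells (log2 difference -1.86, SE 0.21, adjusted p = 0.00699). The arms stood apart and the call held without any single library. Scd2, a fatty acid desaturase, had 99.7, 112 and 99.2 FPKM in late intermediates, against 234, 222 and 333 FPKM in XEN cells (log2 difference -1.31, SE 0.20, adjusted p = 0.0144), and lost its call without Day20 or Day26 (adjusted p 0.0513 and 0.0578). Dhcr7, an enzyme of the last steps of cholesterol synthesis, had 17.8, 15.5 and 9.46 FPKM in late intermediates, against 25.1, 39.0 and 51.5 FPKM in XEN cells (log2 difference -1.36, SE 0.33, adjusted p = 0.0453), and lost it without any single library (adjusted p 0.0537 to 0.119). Fdps, which makes farnesyl diphosphate, was lower too. Scd2 (-0.98) and Dhcr7 (-1.15) were not called with file status as a covariate, nor were Dhcr7 (-0.90) and Fdps (-0.61) with eXEN-2 added or either with no filter.

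Mcm4 and Mcm5, subunits of the replicative helicase, were lower. Mcm4 had 28.9, 26.6 and 20.99 FPKM in late intermediates, against 59.8, 60.1 and 85.4 FPKM in XEN cells (log2 difference -1.38, SE 0.22, adjusted p = 0.0145), and Mcm5 had 35.7, 32.2 and 24.6 FPKM in late intermediates, against 69.6, 73.8 and 90.5 FPKM in XEN cells (log2 difference -1.32, SE 0.20, adjusted p = 0.0141). Both calls were lost without Day26 (adjusted p = 0.0540 and 0.0529) and with file status as a covariate (-0.89 for Mcm4 and -0.86 for Mcm5). Ccne2 and Cdc6, which act at the start of S phase, were the other lower members, and that covariate ended their calls too (-0.52 and -0.60). Of 25 cell cycle arrest genes, the G1 cyclin Ccnd3 was lower and none was higher. Uhrf1 and Dnmt1, which copy DNA methylation onto new strands, were lower among 28 tested chromatin genes, with Kdm4c, while Kdm1b and Ezh1 were higher. Uhrf1 had 29.8, 28.2 and 18.5 FPKM in late intermediates, against 62.2, 84.7 and 86.0 FPKM in XEN cells (log2 difference -1.58, SE 0.24, adjusted p = 0.0139) and kept its call without any single library. Dnmt1 had 26.8, 22.2 and 17.1 FPKM in late intermediates, against 44.7, 48.3 and 56.6 FPKM in XEN cells (log2 difference -1.16, SE 0.21, adjusted p = 0.0206), and lost it without Day26, Day28 or CeXEN replicate 1 (adjusted p 0.0512 to 0.0760). With file status as a covariate neither was called (-1.03 for Uhrf1 and -0.56 for Dnmt1). The chromatin list had no higher member without Day20, Day26, Day28 or CeXEN replicate 1, 1 higher without eXEN-1, and 1 lower without Day26, Day28 or CeXEN replicate 1.

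**Figure D5:**
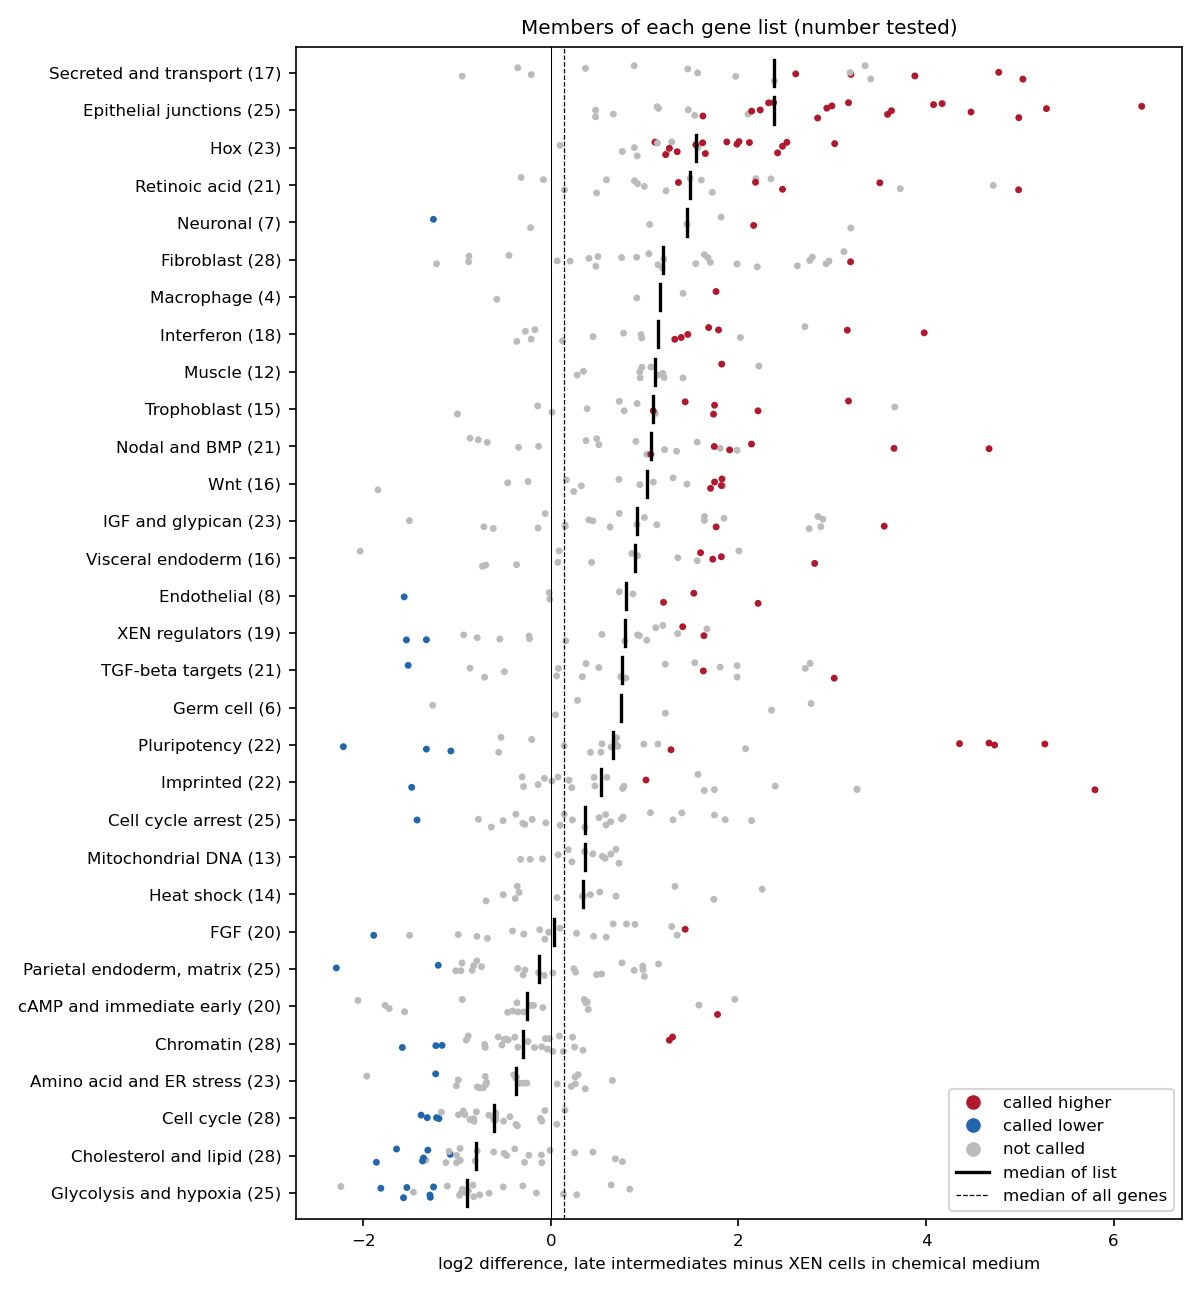
log2 difference (late intermediates minus XEN cells, x axis) of each tested member of 31 gene lists (y axis, number tested in brackets), with called genes in red (higher) and blue (lower), list medians as black bars and the median of all genes (0.14) as a dashed line. The secreted and epithelial lists have the highest medians (2.38), and glycolysis, cholesterol and cell cycle have the lowest.

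Fibroblast genes were at low levels and differed between the late libraries. Of 34 listed, 28 were tested, 1 was higher (Mmp2) and none lower, with a median of 1.20 and of 0.24 for Day28 alone, and the count was 9 without Day28 and 3 without CeXEN replicate 2. The median was 1.85 without Day28 and 0.79 without Day26. Mmp2, a gelatinase of stromal cells and matrix, had 46.3, 139 and 59.6 FPKM in late intermediates, against 13.4, 12.1 and 1.77 FPKM in XEN cells (log2 difference 3.20, SE 0.72, adjusted p = 0.0349). The call was lost without Day20, Day26, Day28 or CeXEN replicate 1 (adjusted p 0.0626 to 0.113) and with no filter. Thy1, a fibroblast surface marker, had 33.0, 53.7 and 3.91 FPKM in late intermediates and 0.883, 3.59 and 0.588 FPKM in XEN cells (log2 difference 3.13, SE 0.92, adjusted p = 0.0712). Col1a1, the main fibrillar collagen chain, had 6.19, 14.7 and 1.03 FPKM in late intermediates and 0.106, 10.1 and 0.573 FPKM in XEN cells (adjusted p = 0.482). Day26 was the highest and Day28 the lowest late library for both, and CeXEN replicate 2 was the highest XEN library. Day28 alone differed by 1.04 for Thy1 and by -0.40 for Col1a1. The summed level of 8 fibroblast markers (Col1a1, Col3a1, Postn, Lox, Dcn, Lum, Twist1 and Prrx1) was 48.6, 85.0 and 11.1 FPKM in late intermediates and 5.92, 37.5 and 2.42 FPKM in XEN cells, against 2455 and 7751 FPKM in fibroblasts.

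Any part of fibroblast RNA in the differences of genes linked to TGF-beta, IGF binding and glypicans was not tested. TGF-beta targets had 2 higher and 1 lower among 21 tested, with a median of 0.76 and 0.12 for Day28 alone, and 6 higher without Day28. Without Day20 or Day26 it had 1 higher and none lower, and without CeXEN replicate 1 it had no call. Its median was 0.51 without Day20, 0.42 without Day26 and 1.34 without Day28. Tgfb2, a ligand of the pathway, had 8.20, 5.77 and 21.5 FPKM in late intermediates, against 0.123, 0.751 and 0.333 FPKM in XEN cells (log2 difference 3.02, SE 0.46, adjusted p = 0.0142, and 0.0535 without CeXEN replicate 1), with Day28 the highest. Igfbp7, a secreted IGF-binding protein, had 35.2, 39.5 and 6.43 FPKM in late intermediates, against 0.434, 2.72 and 0.260 FPKM in XEN cells (log2 difference 3.55, SE 0.74, adjusted p = 0.0293, and 1.98 for Day28 alone). Its call was lost without Day20, Day26, CeXEN replicate 1 or eXEN-1 (adjusted p 0.0642 to 0.101), with no filter and with file status as a covariate (log2 difference 4.43). Igfbp7 and Sdc2, a heparan sulfate proteoglycan, were the 2 higher of 23 tested IGF and glypican genes. In this list and in the TGF-beta list, the share of higher members was near the 8.44% of all genes tested. The IGF and glypican list had none higher without Day20, Day26 or CeXEN replicate 1 and 8 without CeXEN replicate 2.

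Interferon-related genes had 7 higher and no lower members among 18 tested of 27 listed, with a median of 1.15. The count was 2 without Day20, Day26 or CeXEN replicate 1 and 10 without eXEN-1. The untested members Ifit1, Ifit3, Mx1, Mx2, Rsad2, Usp18 and Gbp2 were under 1 FPKM in all 6 libraries. Oas1a and Psmb9, also untested, reached 1 FPKM in 1 library each. Ifitm2, a membrane protein that restricts virus entry, had 299, 215 and 218 FPKM in late intermediates, against 17.2, 37.5 and 27.3 FPKM in XEN cells (log2 difference 3.16, SE 0.30, adjusted p = 0.00433). Bst2 (tetherin), which holds budding virus at the membrane, had 381, 326 and 326 FPKM in late intermediates, against 96.1, 107 and 93.7 FPKM in XEN cells (log2 difference 1.79, SE 0.16, adjusted p = 0.00372). The arms stood apart and both calls held without any single library, but Bst2 was not called with file status as a covariate (0.91) or with eXEN-2 added (2.59). Ifitm3, a relative of Ifitm2 that embryonic and germ cells also express, had 130, 69.7 and 42.1 FPKM in late intermediates, against 2.48, 13.8 and 0.980 FPKM in XEN cells (log2 difference 3.98, SE 0.77, adjusted p = 0.0245), and lost its call without Day20, Day26 or CeXEN replicate 1 (adjusted p 0.0775 to 0.0846) and with no filter.

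The marker sums of other lineages were low, while Krt7 of the trophoblast list reached 33.2 FPKM in Day20. Trophoblast genes had 6 higher (Krt7, Elf5, Cdx2, Eomes, Fgfr2 and Rhox4b) and none lower among 15 tested of 20 listed, with a median of 1.09, and the count was 2 without Day20, Day26 or CeXEN replicate 1. The summed level of Cdx2, Eomes, Elf5 and Tpbpa was 15.3, 18.2 and 16.3 FPKM in late intermediates and 1.30, 4.25 and 1.79 FPKM in XEN cells, with Tpbpa, a marker of the differentiated placenta, at 0 in all but Day26. Krt7, a keratin of simple epithelia and trophoblast, had 33.2, 12.0 and 27.6 FPKM in late intermediates, against 1.11, 2.95 and 1.08 FPKM in XEN cells (log2 difference 3.17, SE 0.44, adjusted p = 0.0107). Elf5, a factor of trophoblast stem cells and of mammary epithelium, had 3.97, 5.33 and 5.22 FPKM in late intermediates, against 0.233, 0.413 and 0.138 FPKM in XEN cells (log2 difference 2.21, SE 0.22, adjusted p = 0.00464). Both calls held without any single library, but neither gene was called with file status as a covariate (0.80 for Krt7 and 0.28 for Elf5).

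Macrophage genes had 1 higher member among 4 tested of 20 listed, Cd68, a lysosomal protein, and its call was lost without Day26 (adjusted p = 0.0547). The summed level of 5 macrophage markers was 9.99, 14.3 and 19.13 FPKM in late intermediates and 2.76, 5.13 and 2.32 FPKM in XEN cells, with Ptprc, the defining blood cell marker, at 0 in all 6 libraries. Endothelial genes had 3 higher (Vwf, Eng and Kdr) and 1 lower (Egfl7) among 8 tested of 16 listed, and the sum of 4 endothelial markers overlapped at 3.87, 6.44 and 5.25 FPKM in late intermediates and 5.05, 6.47 and 1.12 FPKM in XEN cells. Neuronal genes had Syp, a synaptic vesicle protein, higher and Elavl4, an RNA-binding protein of neurons, lower among 7 tested of 20 listed. Of these calls, Vwf and Syp held without any single library but not with file status as a covariate (0.55 and 1.05), while Eng, Kdr, Egfl7 and Elavl4 were lost without Day20 or Day26 (adjusted p 0.0511 to 0.138 over all losses). Eng, Kdr and Elavl4 were also lost without CeXEN replicate 1, Eng and Elavl4 without Day28, Eng without eXEN-1 and Elavl4 without CeXEN replicate 2 or with eXEN-2 added (-0.42). Muscle genes had Tnni1, the slow troponin I, higher among 12 tested of 20 listed, and 8 higher without Day28. The Tnni1 call was lost without Day20, Day26 or either CeXEN library (adjusted p 0.0570 to 0.0971), after quantile normalization and with file status as a covariate (0.57). Of the lists for immediate early and cAMP response (20 tested), amino acid and endoplasmic reticulum stress (23 tested), heat shock (14 tested), mitochondrial DNA (13 tested) and germ cells (6 tested), the first had Ppargc1a higher, the second had Psat1 lower, and the remainder had no call. Psat1 lost its call without Day20, Day26 or Day28 (adjusted p 0.0761 to 0.0982). None of 18 genes typical of the 2-cell embryo passed the filter. Ppargc1a, a coactivator that drives mitochondrial genes and responds to cAMP, had 3.21, 3.34 and 3.94 FPKM in late intermediates, against 0.455, 0.293 and 0.190 FPKM in XEN cells (log2 difference 1.78, SE 0.21, adjusted p = 0.00720).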

How the data were processed

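RNA was sequenced in 21 libraries of the series, of which 6 entered the comparison. Per the submitters' processing notes, TopHat and Cufflinks were used on mm10. Versions are not given in the sources used here. The deposited values are FPKM per gene, made by the authors, in 1 file per library. Depth as read counts is unknown. Relative depth was estimated from genes at 1 fragment. The kit in the labels' protocols marks no strand, so overlapping genes cannot be told apart.

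Values of each gene ID were summed over its loci, set to log2(FPKM + 1) and fitted with limma 3.58.1 (trend) in R 4.3.3, with no covariate and 4 residual degrees of freedom. Genes needed 1 FPKM in 2 or more of the 6 libraries. All adjusted p-values are limma's, Benjamini-Hochberg over 13543 genes. On simulated data with 200 of 13543 genes changed, the fit recovered 43.0% of genes changed by 1.5 on the log2 scale and 94.5% of those changed by 3. Recovery with another number of changed genes was not simulated.

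Named genes were 20 fixed markers, the 12 highest and 12 lowest called genes with a mean of at least 5 FPKM in 1 arm and no overlap, and 4 or fewer called members per list. Unnamed loci, clones and small RNAs were not eligible as highest or lowest genes. Members, lists and alternatives were chosen with earlier results of these data known. Alternatives changed the pseudocount, filter, scaling, genes, libraries and file status. The last, Day28 alone, eXEN-1 alone and long protein-coding genes were added after seeing the data. Some list members are counted but not reported by name.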

Additional observations from a re-analysis of the deposited data

How the results depend on the processing

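The 1143 higher and 247 lower calls kept their direction in each alternative that measured them, except for 11 genes when file status was a covariate and 1 gene when eXEN-2 was added. The arms did not overlap for any of these calls. Fits that only dropped libraries or genes, or changed the pseudocount, could therefore not reverse a direction. The effect of file status was taken from the Day16 libraries alone. A filter at 5 FPKM left 575 higher calls, quantile normalization gave 662 higher and 454 lower, and a fit to all 21 libraries gave 1812 higher and 398 lower. Day28 alone against the XEN libraries gave 168 higher and 6 lower, file status as a covariate gave 136 lower, eXEN-1 as the only XEN library gave 655 lower and the fit without a filter gave 165 lower of 23253 genes. Leaving out 1 library gave 377 to 1423 higher and 58 to 297 lower. The cause of these shifts was not tested, beyond the smaller number of libraries or genes. Of 134 called genes named or listed, 44 kept the call in each fit without 1 library, 18 kept it in Day28 alone, 61 with file status as a covariate and 103 after quantile normalization. Under quantile normalization the Wnt, Nodal and BMP, trophoblast and endothelial lists had 2, 3, 3 and 1 higher members, against 4, 6, 6 and 3 as deposited. No paired analysis was possible because the arms share no replicate numbers. With 3 libraries per arm, changes of 1.5 on the log2 scale were often missed in simulated data, and genes near 1 FPKM rest on few fragments.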

Other observations

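Genes on the sex chromosomes differed between libraries of the same arm. Xist, the RNA that coats the inactive X chromosome, had 3.60, 3.46 and 7.47 FPKM in late intermediates and 5.74, 8.41 and 0.00347 FPKM in XEN cells. Eif2s3y, a Y-linked translation factor gene, had 26.0, 28.0 and 15.7 FPKM in late intermediates and 0, 9.11 and 10.1 FPKM in XEN cells. The CeXEN replicates thus differed in this Y-linked gene, which was at 0 in replicate 1 alone. Any part of the sex of the cells in the differences of X-linked genes was not tested. Among 504 tested genes of the X chromosome, 35 were higher and 11 lower in late intermediates, and without X and Y genes 1112 and 235 genes were called in all.

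Small RNA genes took 0.190%, 0.473% and 0.374% of all FPKM in late intermediates and 0.477%, 2.14% and 3.89% in XEN cells. Among the 1143 higher genes, CeXEN replicate 2 was the highest XEN library in 693, CeXEN replicate 1 in 219 and eXEN-1 in 231.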
